A study of Rattus norvegicus with 8 samples.

Results

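Expression of NMDA and kainate receptor subunit genes was measured on microarrays in whole hippocampal tissue from Sprague Dawley rats, all males 3 months old. For 7 days 4 animals had received vehicle and 4 had received yohimbine plus imipramine (Y+I); the tissue was taken 2 h after treatment. Imipramine, a tricyclic drug, slows the reuptake of noradrenaline and serotonin, and yohimbine is an antagonist of alpha2-adrenoceptors; neither drug was given alone in the animals analysed here, so their effects cannot be told apart. The genes were chosen by name only. A probe belonged to the group when its gene name in the array files was Grin1, Grin2a, Grin2b, Grin2c, Grin2d, Grin3a, Grik1, Grik2, Grik3 or Grik5, which gave 14 of 30367 probes and 10 of 19308 named genes, 6 of them NMDA and 4 kainate receptor subunits. All 14 probes passed the filter on dim signals, and each gene was represented by its brightest probe among 18803 features tested. The probe of Grik3 and the dimmer probe of Grin3a passed only through the vehicle group.

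NMDA receptors are glutamate-gated cation channels that let in calcium when presynaptic glutamate release and postsynaptic depolarisation coincide, and in the hippocampus they are known for triggering synaptic plasticity. They are built around the obligatory subunit encoded by Grin1, which binds glycine or D-serine, together with glutamate-binding subunits from the Grin2 genes or glycine-binding subunits from the Grin3 genes. Kainate receptors are the related channels encoded by the Grik genes; the products of Grik1, Grik2 and Grik3 form channels by themselves, whereas the product of Grik5 needs one of these partners. In the hippocampus, kainate receptors are best known at mossy fibre synapses and on interneurons.

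On these arrays the measurement is the hybridisation of labelled RNA to fixed oligonucleotides of 60 bases, so what a value reports depends on the oligonucleotide. A set of 4 to which the results below refer is shown, each written 5′ to 3′ as the array files give it. Capitals mark a TGA at the end of a Grik1 probe and every CG pair in the Grin2d probe.
Grin1 probe A_43_P11774: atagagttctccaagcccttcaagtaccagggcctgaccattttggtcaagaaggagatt
Grin2d probe A_64_P118192: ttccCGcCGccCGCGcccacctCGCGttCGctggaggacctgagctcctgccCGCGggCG
Grik1 probe A_64_P071775: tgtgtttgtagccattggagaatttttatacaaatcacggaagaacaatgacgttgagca
Grik1 probe A_64_P083818: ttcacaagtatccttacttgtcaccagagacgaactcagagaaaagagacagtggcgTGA
Read from its first base, probe A_64_P083818 has its first stop codon at base 58, its last 3 bases. The Grin1 probe spans 134 bases of rat build rn4 (chromosome 3, 3460217 to 3460350, minus strand), more than its own length, so its positions on the genome are not contiguous. The files do not say which exon or untranslated region a probe covers.

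Of the 10 subunit genes, Grin3a and Grik1 fell in Y+I and none rose. Grin3a, whose product gives NMDA receptors with low calcium permeability, was 2.73-fold lower, and Grik1 was 1.59-fold lower. The 8 others did not pass an adjusted p of 0.05 in limma. Of all features 2.33% passed, 1.6% as lower and 0.739% as higher. An alternative, normexp background correction, models signal and background jointly and adds 50 scanner units to every signal. With it 66.4% of the calls were higher, against 31.7% here. An unadjusted p under 0.05 was reached by 4 of the 10 genes and by 15.6% of all features. Vehicle and Y+I values were fully separated in 3 of the 10 genes, lower in Y+I for Grin3a and Grik1 and higher for Grin2a. Over all features that share was 11.7%, with 6.65% lower and 5.04% higher. The median log2 difference of the 10 genes was -0.016 and that of all features -0.021, or 0.15 and 0.09 with normexp, and 5 genes lay above 0 and 5 below. Throughout, a level is the log2 processed signal minus the array's 75th percentile, and a difference is Y+I minus vehicle on that scale. Levels of different probes do not rank transcripts by abundance. They were combined only as differences within an array and as sums over marker lists, in which brighter probes weigh more.

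**Figure D1:**
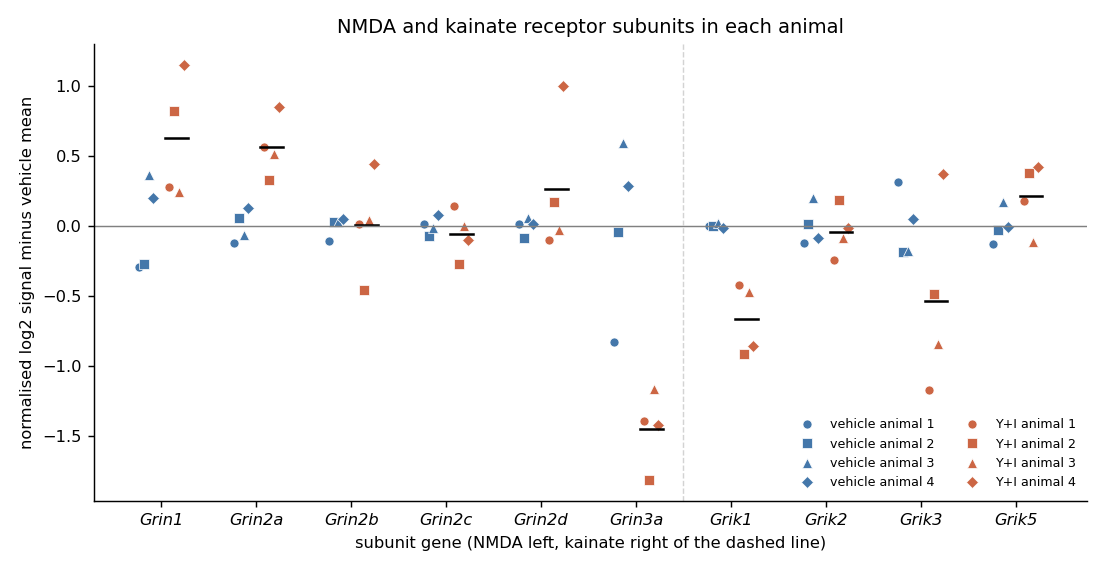
Normalised log2 signal of each subunit gene in each of the 8 animals, drawn relative to the vehicle mean of that gene (vertical axis, log2 units). Blue symbols are vehicle and orange symbols Y+I animals, and the black bar is the Y+I mean; Grin3a and Grik1 lie below, and Grin2a above, every vehicle animal in all 4 Y+I animals.

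The 8 arrays came from a single slide, scanned in 1 session. Each treatment filled 1 row of it, so row and treatment cannot be told apart. Between 76.4% and 79.7% of spots were well above background on vehicle arrays and between 64.4% and 74.8% on Y+I arrays, with the lowest shares in Y+I animals 2 and 3. The 75th percentile of the signal, by which levels were scaled, was 1939 to 2106 scanner units on vehicle arrays and 1883, 1408, 1971 and 1045 in Y+I animals 1 to 4. For the 10 genes the median SD was 0.12 among vehicle and 0.26 among Y+I animals, and for all features 0.13 and 0.24. Of hippocampal neuron markers, 5 of 6 listed dentate granule, all 5 CA1 and all 6 CA3 and CA2 markers passed the filter. So did 7 of 8 listed thalamus and habenula markers, all 5 meningeal markers and 21370 of all 30367 probes. Passing the filter therefore does not identify the tissue. Of 4 listed cerebellar granule markers Gabra6 and Barhl2 did not pass it, whereas Zic1 and Zic2 did. Fewer cells of a type and less RNA per cell cannot be told apart in such tissue samples.

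Grin1, the obligatory NMDA subunit, had 2 probes. At the brighter one the levels were -3.26, -3.24, -2.60 and -2.77 in vehicle animals 1 to 4 and -2.69, -2.15, -2.72 and -1.82 in Y+I animals 1 to 4. Y+I animals 2 and 4 lay above all vehicle animals and the other two within their range, so the groups overlapped. The difference was 0.62 ± 0.24 (SE; 95% interval 0.08 to 1.17; limma adjusted p = 0.246) and did not pass. The second probe, shown above, gave 0.63, with an adjusted p of 0.293 among all kept probes. Its levels in Y+I animals 2 and 4 (-2.41 and -2.28) were again above those of the other 6 animals. These animals are the ones with the lowest 75th percentiles of signal; the part of array brightness in this was not tested.

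Grin2a encodes the glutamate-binding subunit that predominates in the mature forebrain. Its levels were -2.80, -2.62, -2.74 and -2.55 in vehicle and -2.11, -2.35, -2.16 and -1.83 in Y+I. Every Y+I animal lay above every vehicle animal, by at least 0.20 log2 units. The difference was 0.56 ± 0.13 (SE; 95% interval 0.28 to 0.85), 1.48-fold, and missed the threshold (limma adjusted p = 0.0627). It passed with normexp background correction (0.58, adjusted p = 0.0144), with quantile normalisation (adjusted p = 0.0414) and without Y+I animal 2 (0.64, adjusted p = 0.0442). Among the 8 fits that left out an animal it passed in that 1 alone. The limma adjusted p reached 0.153 without vehicle animal 1, and was 0.130 with a block for animal number.

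Grin2b, the subunit that is abundant early in development and persists in hippocampal neurons, did not pass. Its levels ran from -3.88 to -3.72 in vehicle and from -4.23 (animal 2) to -3.33 (animal 4) in Y+I. The Y+I animals thus spread on both sides of the vehicle range, with a difference of 0.01 ± 0.17 (SE; 95% interval -0.38 to 0.40; adjusted p = 0.988). Set within each array, Grin2a minus Grin2b was 1.00 to 1.17 in vehicle and 1.5 to 1.88 in Y+I, without overlap. The group means of this value lay 0.55 log2 units apart, or 0.45 with normexp, and the difference was not tested; its size within a group has no meaning, because the probes differ. Grin2a minus Grin1 overlapped between the groups, at 0.29 ± 0.33 (SD, n = 4) in vehicle and 0.23 ± 0.40 in Y+I.

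Grin2c, best known from cerebellar granule cells and astrocytes, had levels of 2.78 to 2.93 in vehicle and 2.58 to 2.99 in Y+I. Its difference of -0.06 ± 0.11 (SE; 95% interval -0.30 to 0.18; adjusted p = 0.84) did not pass, and its interval did not reach the differences of Grin3a or Grik1. Grin2d, in adult hippocampus mainly a gene of interneurons, had levels of 5.95, 5.85, 5.99 and 5.95 in vehicle and 5.83, 6.11, 5.90 and 6.93 in Y+I. Y+I animal 4, whose array had the lowest 75th percentile, stood above the 7 others, and the difference of 0.26 ± 0.22 (adjusted p = 0.635) was 0.01 without it. The Grin2d probe shown above is 78.3% G or C and holds 10 CG pairs, against a median of 45% and of 1 CG pair over all probes; 0.207% of the probes are at least as rich in G and C. Its mean processed signal was 124165 scanner units in vehicle, and no spot on the arrays was saturated. Whether transcripts other than Grin2d contribute to it was not tested.

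Grin3a showed the largest difference among the 10 genes. At the brighter of its 2 probes the levels were -4.38, -3.59, -2.95 and -3.26 in vehicle animals 1 to 4 and -4.94, -5.36, -4.71 and -4.97 in Y+I animals 1 to 4. The lowest vehicle animal, number 1, lay 0.33 log2 units above the highest Y+I animal, and the vehicle animals spread more widely (SD 0.61) than the Y+I animals (SD 0.27). The difference was -1.45 ± 0.29 (SE; 95% interval -2.10 to -0.80; limma adjusted p = 0.0381).

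The second Grin3a probe, 31 bases away on the genome and listed for the same 2 RefSeq transcripts, had levels of -4.91, -4.12, -3.51 and -3.90 in vehicle and -5.62, -5.61, -5.52 and -5.46 in Y+I. Again all Y+I animals lay below all vehicle animals, at a difference of -1.44 ± 0.26 (SE). Because this probe passed the filter only through the group where it was high, its values are a description and add no support. The probes lie on chromosome 5 of rn4 at 66406544 to 66406603 and 66406453 to 66406512, on the minus strand; neighbours on 1 transcript, they do not count as independent measurements. The brighter probe was well above background on all 8 arrays, and the other on all vehicle arrays but only 2 of the 4 Y+I arrays. In scanner units the brighter probe averaged 184 in vehicle and 51.1 in Y+I.

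The size of the fall in Grin3a depended on the background setting. Normexp as used here also adds 50 scanner units to every signal. The parts of the correction and of this added constant were not tested apart. With normexp the difference was -0.63 at the brighter and -0.44 at the dimmer probe, outside the intervals above, and the call was lost (adjusted p = 0.0574). Leaving out single animals kept the difference between -1.73 and -1.25 but ended the call in 7 of 8 fits, with the adjusted p from 0.0545 without Y+I animal 3 to 0.124 without vehicle animal 4; the call held without vehicle animal 1 (adjusted p = 0.0154).

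**Figure D2:**
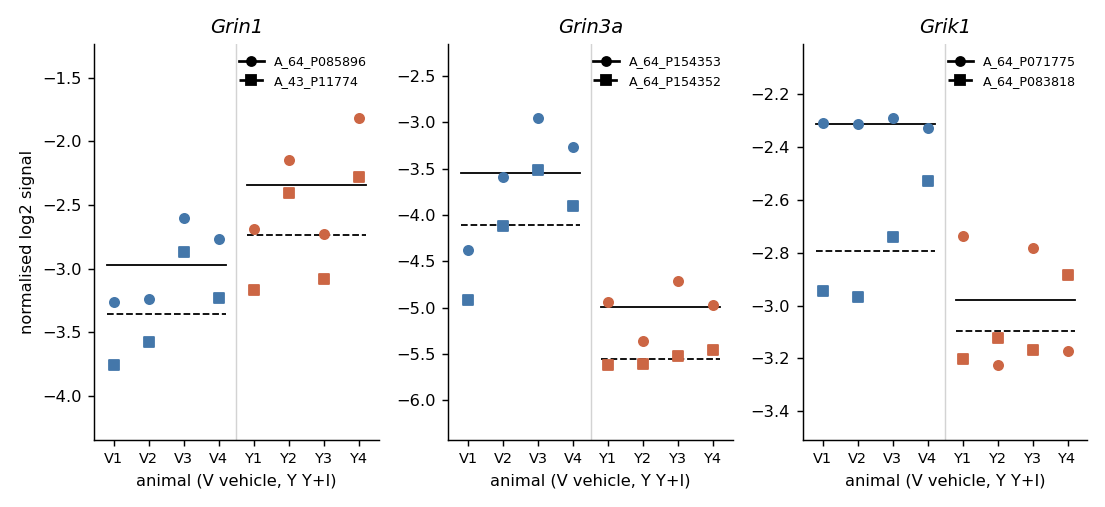
Normalised log2 signal (vertical axis) at both probes of Grin1, Grin3a and Grik1 in vehicle animals V1 to V4 (blue) and Y+I animals Y1 to Y4 (orange), with circles and solid lines (group mean) for the brighter and squares and dashed lines for the dimmer probe. At both Grin3a probes and at the brighter Grik1 probe the groups do not overlap. At the dimmer Grik1 probe they do, with Y+I animal 4 at -2.88.

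Grik1 encodes a kainate receptor subunit that is prominent in hippocampal interneurons. At its brighter probe the levels were -2.31, -2.31, -2.29 and -2.33 in vehicle and -2.74, -3.23, -2.78 and -3.17 in Y+I. The vehicle animals were nearly identical (SD 0.016), and the Y+I animals fell into a higher pair, 1 and 3, and a lower pair, 2 and 4, all below vehicle by at least 0.41. Animals 2 and 4 again had the lowest 75th percentiles. The difference was -0.67 ± 0.13 (SE; 95% interval -0.96 to -0.37; limma adjusted p = 0.0366). This probe lies on chromosome 11 of rn4, 27722939 to 27722998 on the minus strand.

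The second Grik1 probe, which ends in the TGA marked above, lies 18724 bases away at 27704155 to 27704214, and both are listed for the same 3 RefSeq transcripts, although the array files describe the brighter probe by transcript variant 2 and this one by transcript variant 1. It had levels of -2.95, -2.97, -2.74 and -2.53 in vehicle and -3.20, -3.12, -3.17 and -2.88 in Y+I. Of the Y+I animals 3 lay below all vehicle animals, and animal 4 did not. Its difference was -0.30 ± 0.13 (SE; 95% interval -0.59 to -0.01; adjusted p = 0.314 among all kept probes) and did not pass; whether the probes differ from each other in their change was not tested. With normexp the brighter probe gave -0.43 and still passed (adjusted p = 0.0377), and the dimmer one -0.10. The call ended in 6 of the 8 fits that left out an animal, with the adjusted p up to 0.115 without vehicle animal 4, and held without Y+I animal 1 (0.0401) or Y+I animal 3 (0.0402). Within arrays, Grik1 minus Grik2 went from 0.23 to 0.53 in vehicle to -0.69 to 0.23 in Y+I, without overlap; the nearest values were 0.231 in vehicle animal 3 and 0.228 in Y+I animal 1.

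Grik2, the subunit of the classical mossy fibre kainate receptor, showed no difference that these arrays could resolve. Its levels were -2.84 to -2.52 in vehicle and -2.97 to -2.53 in Y+I, almost the same range, with a difference of -0.04 ± 0.12 (SE; 95% interval -0.32 to 0.23; adjusted p = 0.911). Its second probe gave -0.02. Grik5, the high-affinity partner subunit, had levels of 3.24 to 3.53 in vehicle and of 3.54, 3.74, 3.25 and 3.78 in Y+I; 3 of the 4 Y+I animals lay above all vehicle animals, and the difference of 0.21 ± 0.14 (95% interval -0.10 to 0.52; adjusted p = 0.505) did not pass. Grik3, a subunit of presynaptic kainate receptors, was dim. It had levels of -6.15, -6.65, -6.65 and -6.42 in vehicle and -7.64, -6.96, -7.31 and -6.09 in Y+I, where only 1 of the 4 arrays was well above background. Its difference was -0.53 ± 0.30 (adjusted p = 0.444), and it turned to 0.17 with normexp.

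**Figure D3:**
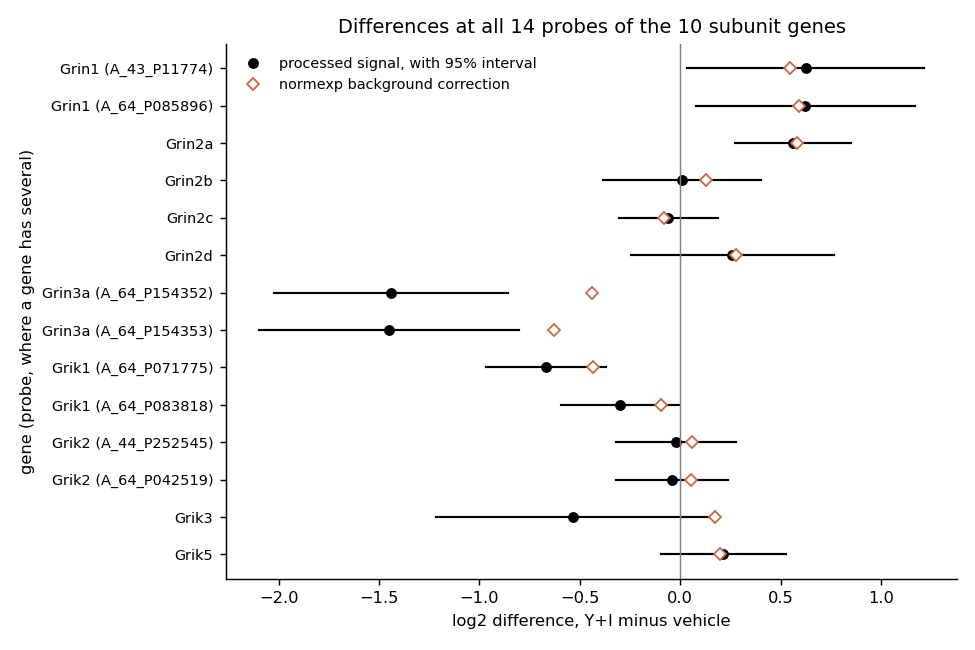
Log2 difference, Y+I minus vehicle, at the 14 probes of the 10 subunit genes (horizontal axis); filled circles with bars are the processed signal with 95% intervals, and open diamonds the difference with normexp background correction. The diamonds lie near the circles for Grin1 and Grin2a, and to the right of the whole interval at both Grin3a probes.

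The pattern of Grik1 and of Grin3a over the 8 arrays was compared with that of 13280 other named features by Pearson's r, as a description. Most like Grik1 were Socs7 (r = 0.995), Rrp7a (0.988) and Ina (0.988), the last a neurofilament-type protein gene, and their r after the group means were removed was 0.972, 0.982 and 0.932. Of these, Socs7 passed in Y+I (difference -1.25, adjusted p = 0.0155). Most like Grin3a were Nrsn1 (r = 0.981), Tmem132c (0.973) and the amino acid transporter gene Slc38a4 (0.972), with r of 0.933, 0.888 and 0.886 after removal of the group means. Tmem132c (-0.65, adjusted p = 0.0343) and Slc38a4 (-2.41, adjusted p = 0.0383) passed. Arrays of 1 slide share their technical variation, and the highest of so many coefficients are high by selection.

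Among genes that serve these receptors, 75 of 84 listed genes in 7 lists were tested; 1 rose and 1 fell (2.67%, against 2.33% of all features), and their median difference was -0.0027. The gene that rose was Camk2a, the alpha subunit of the calcium/calmodulin-dependent kinase that NMDA receptor calcium activates. It went from -0.27 ± 0.25 (SD, n = 4) to 0.51 ± 0.20 (difference 0.78 ± 0.15 SE, adjusted p = 0.0366), but the call ended whichever animal was left out, with the adjusted p between 0.0510 and 0.106. The other 19 measured NMDA receptor-coupled kinases, phosphatases and calcium effectors did not pass, and the list's median was 0.13. At an unadjusted p under 0.05 were 7 of the 20 genes, Camk2a included, against 15.6% of all features. The gene that fell was the vesicular glutamate transporter gene Slc17a6, abundant in thalamus, from 0.44 ± 0.29 to -0.74 ± 0.38 (difference -1.17 ± 0.21 SE, adjusted p = 0.0291). That call held in 2 of the 8 fits that left out an animal, those lacking vehicle animal 3 and Y+I animal 4. The adjusted p reached 0.0967 without vehicle animal 4.

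In the remaining 5 lists limma passed 0 genes. At an unadjusted p under 0.05, against 15.6% of all features, were 2 of 7 kainate receptor auxiliary and recruiting genes. So were 2 of 20 scaffold and trafficking and 1 of 10 co-agonist supply genes, and 0 in the other lists. The remaining subunits of the families, Grin3b and Grik4, named after their values were seen, had differences of -0.04 (adjusted p = 0.958) and -0.02 (adjusted p = 0.978). Only 2 Y+I arrays measured Grin3b well above background, and with normexp it was at 0.24. Of 7 kainate receptor auxiliary and recruiting genes the smallest p belonged to Neto2, an auxiliary subunit (-0.50 ± 0.14 SE, adjusted p = 0.113), which was well above background on 1 Y+I array and turned to 0.16 with normexp. Scaffold and trafficking genes had a median of 0.10 over 20 genes, with Dlg1 at -0.52 (adjusted p = 0.206, and 0.06 with normexp). Genes that supply the co-agonists glycine and D-serine had a median of -0.08 over 10, with the serine hydroxymethyltransferase gene Shmt1 at 0.34 (adjusted p = 0.238). Of 10 kynurenine pathway genes, whose products make NMDA receptor ligands, 4 were measured, with Kyat1 at -0.25 (adjusted p = 0.381).

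**Figure D4:**
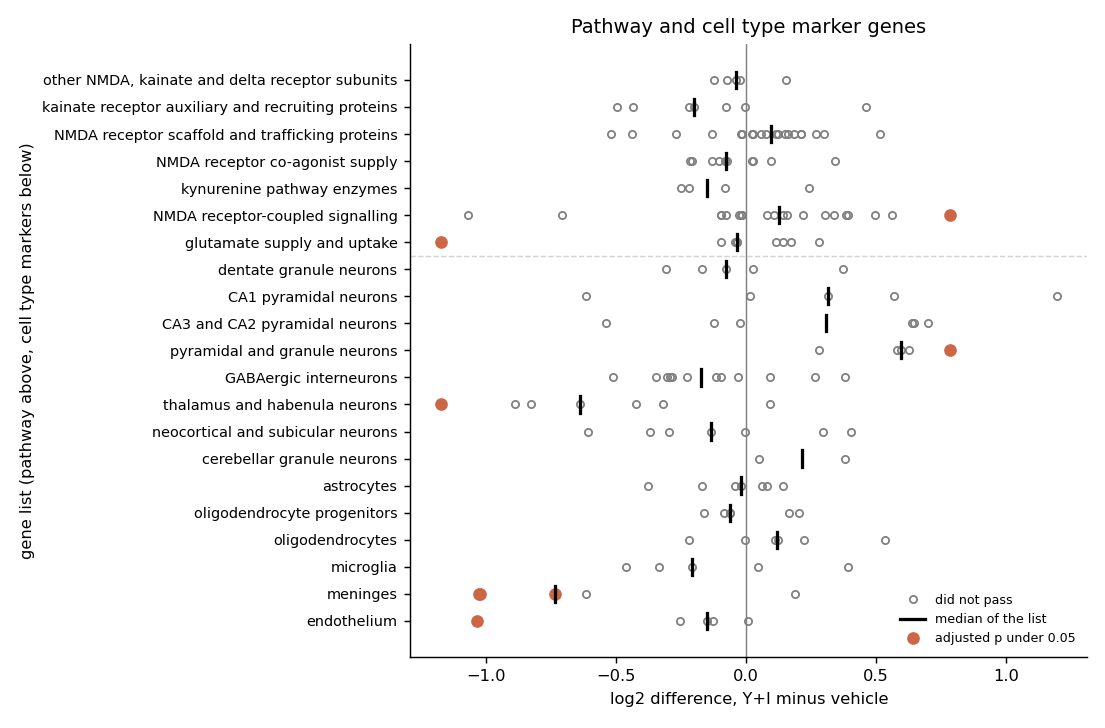
Log2 difference, Y+I minus vehicle, of each measured gene (circles) in the 7 pathway lists above the dashed line and the 14 cell type marker lists below it; filled circles passed an adjusted p of 0.05 and black bars are list medians. Most circles are open, with filled ones at Camk2a, Slc17a6, meningeal genes and Kdr.

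Marker genes of cell types were read beside Grin3a and Grik1; few of them passed, and no list was tested as a whole. At an unadjusted p under 0.05, against 15.6% of all features, were 5 of 7 thalamus and habenula, 4 of 12 interneuron and 3 of 5 shared pyramidal and granule markers. So were 3 of 5 CA1, 4 of 6 CA3 and CA2 and 3 of 5 meningeal markers. Counts for the other lists, some of them also above that share, are given below. The 7 measured thalamus and habenula markers of 8 listed had a median of -0.64, and their summed linear signal, in multiples of the 75th percentile, was 4.25 to 5.0 in vehicle and 2.44 to 2.78 in Y+I, without overlap. Of these, Slc17a6 passed, and the habenula marker Pou4f1 was removed by the filter. Tcf7l2 alone lay above 0 (0.09). Rora (-0.42) was well above background on 1 Y+I array and turned to 0.30 with normexp. The 12 measured interneuron markers of 13 had a median of -0.17 with 0 passing in limma (4 at an unadjusted p under 0.05, as above). Vip was at -0.51 (adjusted p = 0.0742), whereas Gad2 (0.38), Npy (0.26) and Lhx6 (0.09) lay above 0. The list's summed signal was 108 to 135 in vehicle against 91.4 to 116 in Y+I, with Cck (-0.23) as its largest part. The 5 genes shared by pyramidal and granule neurons all lay above 0, with a median of 0.59 and 1 passing, Camk2a. Their summed signal was 7.09 to 9.61 in vehicle and 9.41 to 16.5 in Y+I. In CA1 markers the median was 0.31 (Wfs1 at 1.19, adjusted p = 0.112) and the sums 26.1 to 42.8 against 44.6 to 49.9; in CA3 and CA2 markers the median was 0.31 (Rgs14 at 0.70, adjusted p = 0.0982) and the sums 15.2 to 24.8 against 27.6 to 32.1, both without overlap. Most of these sums came from Fibcd1 and Bok, and 1 of the 5 CA1 and 3 of the 6 CA3 and CA2 markers, Nectin3, Pcp4 and Grik4, lay below 0. Of 5 meningeal markers 3 fell, Slc6a13 (-1.02, adjusted p = 0.0105), Col1a1 (-1.03, 0.0135) and Igfbp2 (-0.73, 0.0383), with sums of 2.29 to 2.79 against 1.43 to 1.89. Lum did not pass (-0.62, and 0.10 with normexp), and Dcn lay above 0 (0.19). The Igfbp2 call held in 1 of the 8 fits that left out an animal, without Y+I animal 2. The part of these cell types in the differences of Grin3a, Grik1 and Grin2a was not tested.

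The remaining marker lists follow. In dentate granule markers the median was -0.08 (Calb1 at -0.17) and in neocortical and subicular markers -0.14 (Fezf2 at -0.61, adjusted p = 0.117). It was -0.02 in astrocyte markers (Aldh1l1 at -0.38), -0.06 in oligodendrocyte progenitor markers (Olig2 at 0.20) and 0.12 in oligodendrocyte markers (Mobp at 0.53). In microglia markers it was -0.21 (P2ry12 at -0.46), and in the 2 measured cerebellar markers 0.22 (Zic1 at 0.38). Limma passed 0 genes of these lists. At an unadjusted p under 0.05, against 15.6% of all features, were 2 of 7 neocortical and subicular and 2 of 5 microglia markers. So were 1 of 7 astrocyte and 1 of 6 oligodendrocyte markers, and 0 in the other lists named here. The 5 endothelial markers had a median of -0.15, or 0.03 with normexp, with 2 of 5 at an unadjusted p under 0.05. Of these markers Kdr fell (difference -1.03, adjusted p = 0.00932). Pecam1 (-0.25), Tek (-0.15), Flt1 (-0.13) and Cldn5 (0.008) did not pass, and with normexp Tek was at 0.31 and Flt1 at 0.15.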

How the data were processed

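Per the labels' protocols, Cy3-labelled hippocampal RNA of each animal was hybridised to a 1-colour Agilent rat array. The deposited scanner files give a processed intensity per spot, spatially and multiplicatively detrended within the array but not scaled between arrays, with mean and local background intensity (Feature Extraction 10.5.1.1, per the file headers). A deposited table gives log2 values on an unstated scale; its columns had slopes of 0.982 to 0.993 and r of at least 0.997 against the scanner values, medians of -3.51 to -3.35 and a 75th percentile near 0, so centring on that percentile is inferred, and it served as an alternative. It holds all 14 probes.

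Levels are log2 processed signals minus the array's 75th percentile over noncontrol spots. Outlier spots were left out and replicate spots averaged. Of 30367 probes, 21370 were kept: well above background, on at least 50% of a probe's spots, on all 4 arrays of a group, with at least 3 values per group. Signals near background are surrogate values, which affects dim genes. Names were updated through RefSeq (GRCr8); 7418 probes had none. The brightest kept probe stood for each gene.

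Groups were compared with limma 3.58.1 (lmFit, eBayes) under R 4.3.3, as a two-sided comparison of all 18803 features, Benjamini-Hochberg adjusted, at 0.05. The fit was tested on simulated data that kept the unequal spreads. Of its 142 calls there 19 were false, a share above the nominal rate, so calls close to the threshold are less certain than their adjusted p. It recovered 25.4% of simulated 1.5-fold and 67.2% of simulated 2-fold changes. A gene that did not pass may therefore still have changed by such amounts. Per the labels, replicates are separate animals.

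The genes and lists were chosen with earlier results of these data known. Named were all 10 subunits, the passing genes of each list (at most 4 in pathway lists) or else the gene with the smallest p, and the 3 genes most like the 2 subunits with the smallest p, leaving out provisional names; 1 listed gene and 1 probe sequence are not reported here. Alternatives covered normalisation, background correction, filters, probe summaries, variance models, a block for animal number and omitted arrays.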

Additional observations from a re-analysis of the deposited data

Results flagged for a closer look

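In Grin2b, vehicle animal 1 stood apart from the other vehicle animals: its level was -3.88, with the others between -3.74 and -3.72, and the gap was 0.867 of the group's range, above Dixon's 95% critical value for 4 samples. In Slc17a6, Y+I animal 4 had a level of -0.17, with the other Y+I animals at -0.85 or below, a gap of 0.852 of the range. By chance about 1 in 20 groups would be marked in this way.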

How the results depend on the processing

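Of the 18803 features, 439 passed as reported; 665 did with cyclic loess, 3887 with no filter on background (among more and dimmer probes), 164 without Y+I animals 2 and 3, and between 121 and 355 when single animals were left out. Of the 10 subunit genes, 2 passed as reported, 0 without Y+I animals 2 and 3, and 0 or 1 when single animals were left out. Animal numbers were treated as labels only in the main fit. The deviations of same-numbered animals from their group means correlated between -0.11 and 0.05, and those of the other pairs between -0.22 and 0.18. With so few animals, these values cannot exclude a pairing. With a replicate block for animal number, 144 features and 0 subunit genes passed (Grin3a adjusted p = 0.0626, Grik1 0.105). Without Y+I animals 2 and 3, Grin3a was at -1.41 (adjusted p = 0.146) and Grik1 at -0.64 (0.0922). Grin2a lay above 0 in all 21 alternatives and passed in 8 of them. Some differences that did not pass changed sign: Grik2 was 0.015 with cyclic loess and 0.053 with normexp, Grin2c 0.026 with array weights and 0.020 without Y+I animals 2 and 3, and Grik3 0.17 with normexp. When single animals were left out, Grik2 ranged from -0.12 to 0.027, Grin2c from -0.13 to 0.012 and Grin2b from -0.14 to 0.17. The cause of these changes was not tested. Normexp moved the median difference of all features from -0.02 to 0.09, so its differences are to be read against that. The number of arrays limits the precision, and dim signals limit Grik3 and Grin3a.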
